A study of Mus musculus with 12 samples.

Results

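The 37 genes described are other PRDM family members and enzymes and cofactors of repressive chromatin, in dorsal root ganglia of adult mice with reduced Prdm12. They were taken by symbol from a list of 13 PRDM genes and 24 genes of the machinery for histone H3 lysine 9 (H3K9) and lysine 27 (H3K27) methylation, and all 37 were found among the 55416 gene identifiers in the files. The list does not hold Prdm12 itself. The question put to them was whether a relative or a partner enzyme is expressed at another level when Prdm12 is reduced, that is, whether the family compensates.

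Dorsal root ganglia hold the cell bodies of the sensory neurons of the body, with satellite glia, Schwann cells, vessels and immune cells around them. Polyadenylated RNA of the ganglia of adult C57Bl6 mice was sequenced in 12 libraries, 6 labelled iKO (inducible knockout) and 6 labelled control. The iKO animals carried Rosa26CreERT2, a Cre recombinase that tamoxifen switches on, with 2 floxed Prdm12 alleles, and were injected with tamoxifen. The series' design places the collection 1 month after injection. Several genotypes served as controls. Control 1 had Rosa26CreERT2 with 1 floxed and 1 wild-type allele, controls 2 and 3 had 1 floxed allele and no Cre, and control 4 had Rosa26CreERT2 with wild-type alleles; these 4 received tamoxifen. Controls 5 and 6 had the iKO genotype, Rosa26CreERT2 with 2 floxed alleles, and received corn oil instead of tamoxifen. iKO 1 to 3 and controls 1 and 2 were female and the other 7 animals or pools male. Rosa26 is a locus active in most cell types, so the deletion is not limited to neurons by its promoter. Whether a library holds 1 animal or several is not in the labels, so p-values reflect the spread among these libraries, part of which may be technical.

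PRDM proteins join a PR domain, a relative of the SET domain of histone methyltransferases, to a row of zinc fingers that bind DNA. A few of them methylate histones themselves, and most act by bringing other enzymes to their targets. Prdm12, which is needed for pain-sensing neurons to form in the embryo, is of the second kind and works with the H3K9 methyltransferase G9a. Methylated H3K9 is bound by the HP1 proteins and marks silent chromatin, while methylated H3K27 is written by Polycomb repressive complex 2 (PRC2) and marks genes silenced in development.

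Library totals ran from 13943784 to 20377766 counts, and 16384 genes passed the filter on low counts. Levels are given as CPM, the count scaled to a common library size. All sensory neuron markers listed were detected, with a summed level of 9762 to 11160 CPM in controls and 8867 to 11600 CPM in the iKO group. Library iKO 1 stood apart from the other 5 iKO libraries. Its fibroblast markers summed to 4080 CPM, against 1483 to 1724 CPM in the other iKO libraries, its macrophage markers to 314 CPM against 111 to 132 CPM, and it had the lowest sum of sensory neuron markers, 8867 CPM. Results that rest on it are given with and without it. In RNA from whole ganglia, fewer cells of a type and less RNA per cell cannot be told apart.

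Prdm12 was reduced in every iKO library. Its level was 64.5, 123.4 and 146.8 CPM (lowest, median and highest) in controls and 18.6, 23.9 and 25.3 CPM in the iKO group. The groups did not overlap, although control 6, at 64.5 CPM, was far below the other controls. Prdm12 fell by 2.33 ± 0.18 on the log2 scale (SE; adjusted p = 8.58e-05, edgeR's quasi-likelihood test with sex as a term). Which exons are floxed is not in the labels, and the source of the counts left in iKO libraries was not tested. Prdm12 shares 8.09% of its exon bases with the antisense gene Gm13425, which had 14324 counts over all libraries against 13200 for Prdm12, and without strand their reads in those bases cannot be told apart.

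Against this reduction of Prdm12, edgeR was run as a quasi-likelihood test, with Benjamini-Hochberg adjustment across every gene tested and a threshold of 0.05. It called 0 of the 35 members that passed the filter, where it called 0.946% of all genes tested. At an unadjusted p under 0.05 it found 1 member higher in iKO, Prdm8 (2.86% of 35, against 5.33% of all genes), and 4 lower, Mphosph8, Cdyl, Kdm4c and Ezh2 (11.4%, against 4.19%). A second count test, DESeq2's Wald test, called Prdm8 alone among the members and 1.79% of all genes; limma-voom called 0 members. The groups did not overlap for 1 member, Prdm8, and for 1.54% of all genes.

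The intervals of the fold changes, each for 1 gene alone, bound the change in RNA of whole ganglia. A larger change limited to some of the cells was not measured. For 33 of the 35 members (94.3%) the 95% interval of the iKO over control ratio lay within 1.5-fold either way, which held for 79.6% of all genes. The 2 exceptions were Prdm1, with an interval of -0.82 to 0.23 on the log2 scale, and Prdm6, with -0.84 to 0.55, both counted at about 1 CPM. Of the 35 estimates 11 were above 0 and 24 below. Their median log2 fold change was -0.01, and 68.6% were negative against 50% over all genes. The median size of a member's log2 fold change, regardless of sign, was 0.08 against 0.09 over all genes. Among controls the members varied with a median coefficient of variation of 8.14%, against 10.3% for all genes tested.

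**Figure D1:**
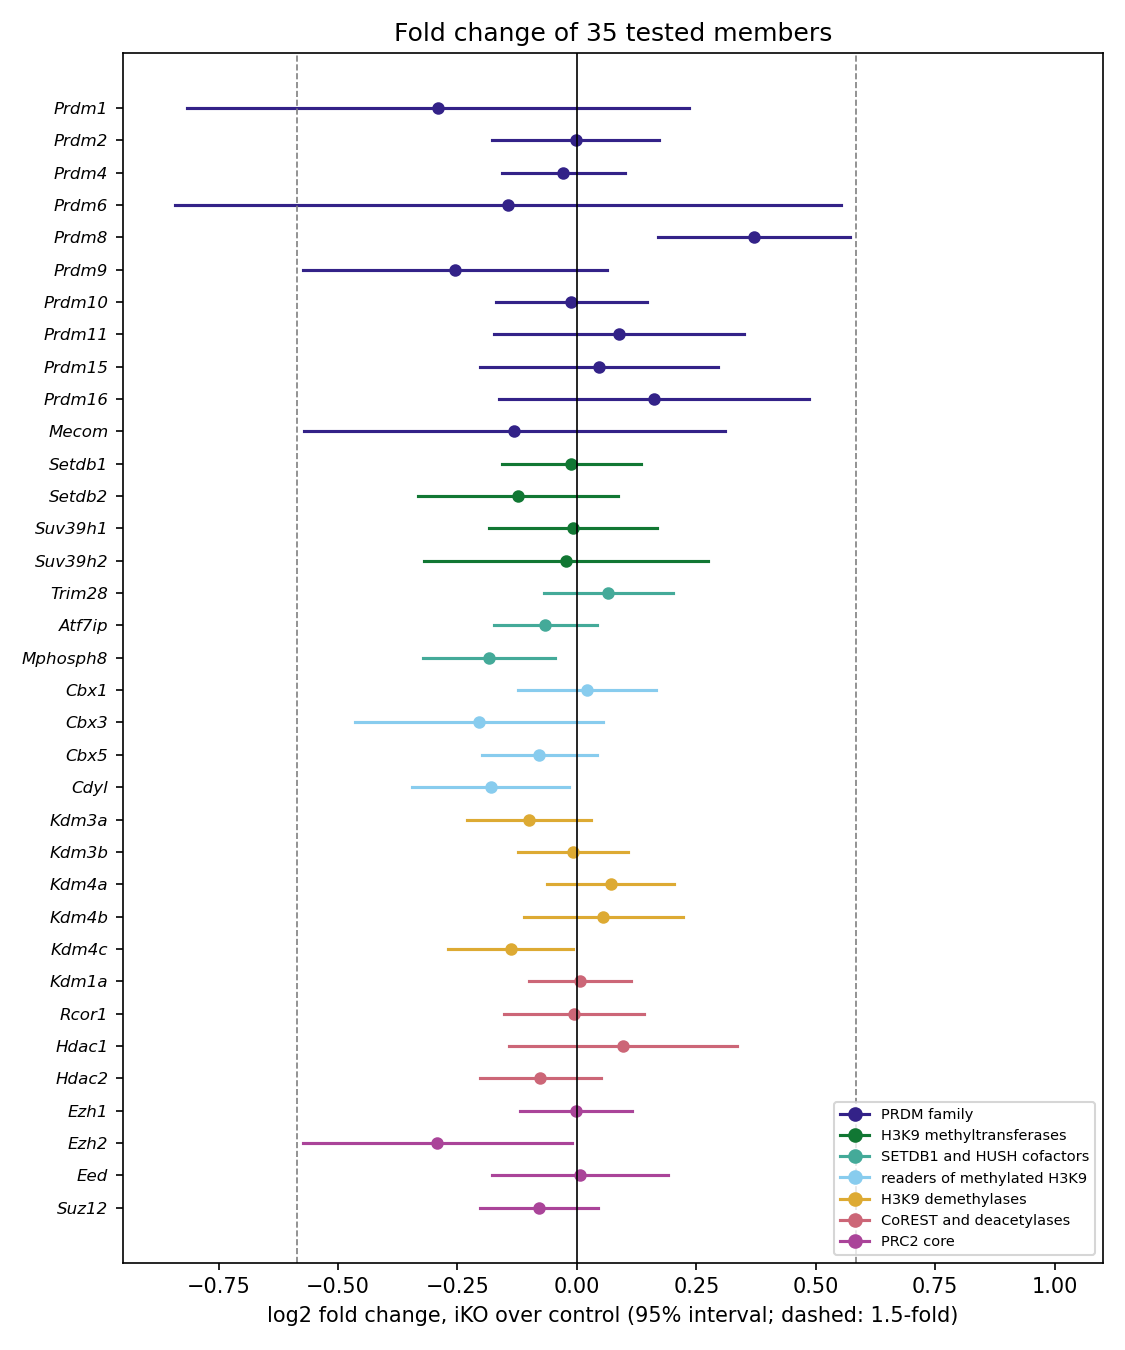
Log2 fold change, iKO over control, of the 35 tested members, ordered and coloured by role. Points are estimates of edgeR's fit and lines their 95% intervals; Prdm8 is the only point above 0.3, and the intervals of Prdm1 and Prdm6 alone cross a dashed line at 1.5-fold.

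The PRDM genes are described first. Prdm8, a repressor in developing neurons that partners with the transcription factor Bhlhe22, was the member with the smallest p. Its level was 8.93, 10.4 and 12.3 CPM (lowest, median and highest) in controls and 12.5, 13.2 and 15.2 CPM in the iKO group. All 6 iKO libraries were above all 6 controls, by a narrow margin at the meeting point: control 5 had 12.3 CPM and iKO 4 had 12.5 CPM. The means were 10.5 ± 1.21 CPM in controls and 13.6 ± 1.21 CPM in the iKO group (SD, n = 6 each). The log2 fold change was 0.37 ± 0.09 (SE), with a 95% interval of 0.17 to 0.57 and an edgeR adjusted p of 0.101. Relabelling the libraries in every way, an exact permutation test of the log2 levels (2-sided) gave p = 0.00216, the smallest possible with 6 against 6. That value follows from the groups not overlapping, which held for 1.54% of all genes. It is not adjusted and takes no account of sex. With an edgeR adjusted p of 0.101, Prdm8 missed the threshold in the test over all genes, and that call depended on single libraries. The adjusted p ran from 0.0236 to 0.382 over the 24 alternatives. It was 0.0453 without iKO 1 and 0.0304 without control 5 (where 1.14% of all genes were called) by the same edgeR test, and 0.0236 by DESeq2. With replicates 1 to 4 alone the log2 fold change was 0.44 (edgeR adjusted p = 0.271).

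Against the tamoxifen controls alone Prdm8 differed by 0.39 on the log2 scale (edgeR adjusted p = 0.0878), and against the corn-oil controls by 0.32 (edgeR adjusted p = 0.915, with 2 controls). The corn-oil controls bracketed the rest of their group, at 12.3 CPM in control 5 and 8.93 CPM in control 6. Prdm8 shares 29.1% of its annotated exon bases with A730035I17Rik, an antisense transcript. The libraries do not record strand, so reads in the shared bases cannot be told apart. A730035I17Rik had 89 counts over all libraries and Prdm8 had 2413.

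Mean levels of the other PRDM genes in controls ran from 73.0 CPM, for Prdm2, down to 0 CPM. Prdm4, a zinc finger partner of the p75 neurotrophin receptor, had 50.4 ± 2.74 CPM in controls and 49.3 ± 3.41 CPM in the iKO group, with a 95% interval of -0.16 to 0.10 around a log2 fold change of -0.03. Prdm2 (RIZ1), an H3K9 methyltransferase of the family, had 73.0 ± 4.81 CPM and 73.1 ± 9.21 CPM, with an interval of -0.18 to 0.17. Those are the most abundant PRDM genes in the set, and their intervals are among the narrowest in the family. Prdm10 had 18.9 ± 1.54 CPM and 18.6 ± 1.32 CPM. Prdm15 had 13.5 ± 1.77 CPM and 13.9 ± 2.33 CPM, with iKO 5 at 18.6 CPM above the rest. Prdm16, known for steering brown fat and neural stem cells, had 10.6 ± 2.702 CPM and 11.6 ± 1.78 CPM, and control 5 at 16.03 CPM was the highest of all 12 libraries.

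Levels of the remaining PRDM genes were below 6 CPM in every library. Prdm9, which places recombination sites in meiosis, had 3.75 ± 0.570 CPM in controls and 3.19 ± 0.516 CPM in the iKO group (log2 fold change -0.26, interval -0.57 to 0.06). Prdm11 had 4.30 ± 0.549 CPM and 4.56 ± 0.487 CPM. Mecom, the family member also called Prdm3 or Evi1, had 2.22 ± 0.393 CPM and 2.01 ± 0.584 CPM. Prdm1 (Blimp1), a repressor known from plasma cells and from sensory and neural crest development in fish, had 0.817 ± 0.234 CPM and 0.681 ± 0.188 CPM, which came from 7 to 19 counts in a library. Prdm6, a smooth muscle repressor, had 1.14 ± 0.434 CPM and 1.121 ± 0.597 CPM. None of these genes was called, and the depth allows only the wide intervals given above for the least abundant.

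Prdm13 and Prdm14 had 0 counts in all 12 libraries. Prdm13 sets inhibitory neuron fate in the dorsal spinal cord, and Prdm14 keeps germ cells and pluripotent cells in their state. Taking 3 counts as the upper limit that a count of 0 allows, their level was at most 0.0324 CPM over the control libraries and 0.0283 CPM over the iKO libraries, counting error only. Neither gene was detected in ganglia with reduced Prdm12 at this depth.

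The family's summed level can be set against the fall in Prdm12. Per kilobase of annotated exon, which makes levels of different genes comparable, Prdm12 went from 47.4 ± 11.9 CPM per kb in controls to 9.42 ± 1.02 CPM per kb in iKO libraries, a difference of -38.0. The 13 PRDM members together had 28.4 ± 0.920 CPM per kb in controls and 28.8 ± 2.14 CPM per kb in iKO libraries. The difference was 0.406, or 1.43%. Most of the sum came from Prdm4 and Prdm2, with 10.3 and 9.84 CPM per kb in controls, so it says little of the less abundant members. Prdm8 alone went from 2.15 to 2.80 CPM per kb. The range of the sum in iKO libraries, 25.8 to 31.2 CPM per kb, contained that of the controls, 27.4 to 29.7.

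**Figure D2:**
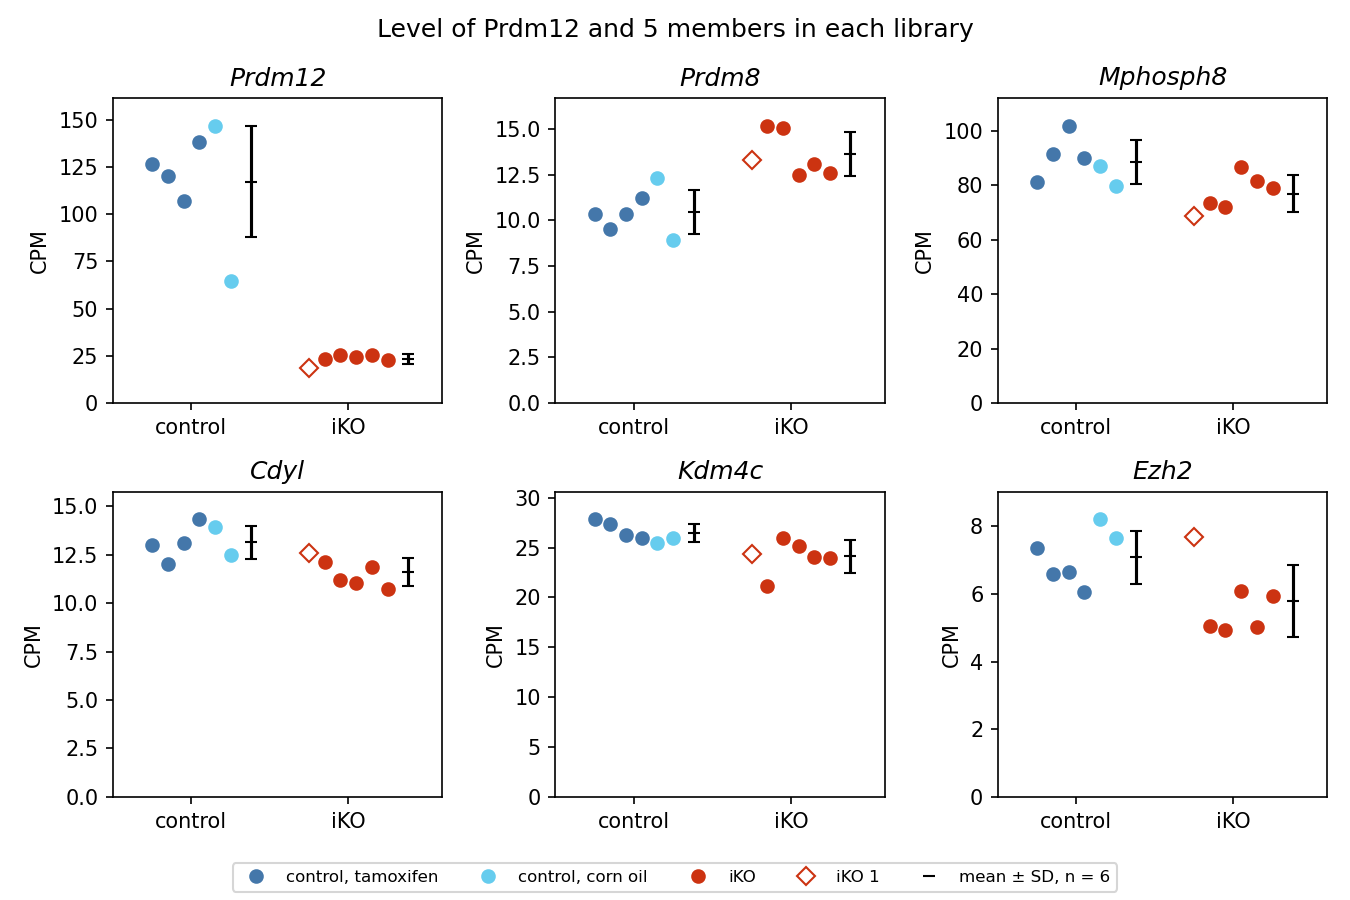
Level in CPM (axes from 0) of Prdm12 and of the 5 members with an unadjusted p under 0.05, in each of the 12 libraries, with mean ± SD beside each group. Prdm12 separates widely and Prdm8 narrowly, while the groups of Mphosph8, Cdyl, Kdm4c and Ezh2 overlap; iKO 1 (open diamond) has the highest Ezh2 level of the iKO libraries.

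Among the 4 H3K9 methyltransferases in the set, 0 were called and all 4 intervals lay within 1.5-fold. Setdb1, which trimethylates H3K9 at transposons and zinc finger gene targets, had 43.8 ± 3.35 CPM in controls and 43.3 ± 3.61 CPM in the iKO group. Its relative Setdb2 had 8.27 ± 0.876 CPM and 7.60 ± 0.572 CPM. Suv39h1 and Suv39h2 are the enzymes of heterochromatin around centromeres. In controls they had 13.7 ± 1.16 and 4.59 ± 0.796 CPM, and in the iKO group 13.6 ± 1.13 and 4.53 ± 0.560 CPM. Suv39h2 shares 8.1% of its exon bases with Dclre1c on the opposite strand, and reads there cannot be told apart. Dclre1c had 4144 counts over all libraries against 905 for Suv39h2. The other H3K9 methyltransferases in the wider lists, Ehmt1 (GLP) and Ehmt2 (G9a, the partner of Prdm12), had log2 fold changes of 0.04 and 0.13, with edgeR adjusted p of 0.838 and 0.536. Against the tamoxifen controls without iKO 1, Ehmt2 was called (log2 fold change 0.17, edgeR adjusted p = 0.033), as were 8.87% of all genes. DESeq2 called Ehmt2 against the tamoxifen controls with iKO 1 kept (3.58% of all genes).

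Cofactors of SETDB1 and of the HUSH complex, which silences transposons and unintegrated DNA through H3K9 methylation, included the second smallest p among the members. Mphosph8, the HUSH subunit that binds methylated H3K9, had 79.8, 88.3 and 101.8 CPM (lowest, median and highest) in controls and 68.5, 76.2 and 86.8 CPM in the iKO group. The groups overlapped between 79.8 and 86.8 CPM. Means were 88.4 ± 7.97 CPM and 76.9 ± 6.76 CPM, and the log2 fold change was -0.18 ± 0.06 (SE) with an interval of -0.32 to -0.04 and an edgeR adjusted p of 0.337, within a range of 0.0776 to 0.713 over the 24 alternatives. An exact permutation test gave p = 0.0195. About 10.7% of its exon bases overlap Gm16973 on the opposite strand, which had 799 counts over all libraries against 16305 for Mphosph8. Trim28 (KAP1), the scaffold that zinc finger proteins use to recruit SETDB1, had 62.9 ± 3.64 CPM in controls and 66.8 ± 6.26 CPM in the iKO group, and Atf7ip, a stabiliser of SETDB1, had 62.9 ± 3.48 CPM and 59.6 ± 2.21 CPM. Neither Trim28 nor Atf7ip was called.

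The readers of methylated H3K9 comprise the HP1 proteins Cbx1, Cbx3 and Cbx5 and the chromodomain protein Cdyl, which bridges H3K9 methylation to REST and PRC2. Cdyl had 12.03, 13.0 and 14.3 CPM (lowest, median and highest) in controls and 10.7, 11.5 and 12.6 CPM in the iKO group, so that the groups overlapped. The log2 fold change was -0.18 ± 0.08 (SE; edgeR adjusted p = 0.467, 0.199 to 0.823 over the alternatives), and the exact permutation p was 0.0108. Cbx5 (HP1 alpha) was the most abundant member in CPM, at 152.3, 164.3 and 170.9 CPM in controls and 142.5, 155.0 and 166.1 CPM in the iKO group. Its groups overlapped, and its interval was -0.20 to 0.04. Cbx1 had 31.7 ± 2.499 CPM and 32.2 ± 2.13 CPM. Cbx3 had 8.26 ± 1.22 CPM and 7.15 ± 0.861 CPM, but the annotation names 8 pseudogene copies of it, so its count is uncertain.

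H3K9 demethylases act against these enzymes, and 0 of the 5 in the set were called. Kdm4c, which removes methyl groups from trimethylated H3K9, had 25.5, 26.1 and 27.8 CPM (lowest, median and highest) in controls and 21.2, 24.2 and 26.0 CPM in the iKO group. The highest iKO library, iKO 3, reached the lower part of the control range. The log2 fold change was -0.14 ± 0.06 (SE), with an edgeR adjusted p of 0.491 (0.303 to 0.826 over the alternatives) and an exact permutation p of 0.00649. Its paralogs Kdm4a and Kdm4b had log2 fold changes of 0.07 and 0.06, and Kdm3a and Kdm3b, which remove 1 or 2 methyl groups from H3K9, had -0.10 and -0.01. In Kdm4a, iKO 4 was low, at 47.5 CPM against 56.1 to 59.1 CPM in the other iKO libraries.

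The CoREST complex, in which Kdm1a (LSD1) and the scaffold Rcor1 work with the deacetylases Hdac1 and Hdac2 to silence neuronal genes outside neurons, gave 0 calls among 4 members. Kdm1a had 55.6 ± 2.60 CPM in controls and 55.7 ± 2.06 CPM in the iKO group, with an interval of -0.10 to 0.11 on the log2 scale, the narrowest of all members. Rcor1 had 36.5 ± 2.26 CPM and 36.4 ± 3.27 CPM. Hdac1 had 8.38 ± 0.723 CPM and 9.10 ± 1.49 CPM. Hdac2, a deacetylase abundant in mature neurons, had 108.7, 124.1 and 132.5 CPM (lowest, median and highest) in controls and 107.1, 115.6 and 120.6 CPM in the iKO group; the groups overlapped and the edgeR adjusted p was 0.719.

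PRC2 writes H3K27 methylation through Ezh1 or Ezh2, with Eed and Suz12 as obligate partners. Ezh1, the form of resting cells, had 118.5, 121.0 and 125.3 CPM (lowest, median and highest) in controls and 104.2, 123.6 and 127.8 CPM in the iKO group, where the lowest value was iKO 1. Ezh2, the form of dividing cells, had 6.06, 7.003 and 8.20 CPM in controls and 4.92, 5.49 and 7.68 CPM in the iKO group, where the highest value was iKO 1. The other 5 iKO libraries, at 4.92 to 6.07 CPM, reached the lowest control only in iKO 4. The log2 fold change of Ezh2 was -0.29 ± 0.13 (SE; edgeR adjusted p = 0.505, exact permutation p = 0.0368), and without iKO 1 it was -0.38 ± 0.11 (edgeR adjusted p = 0.0881, the lowest of a range up to 0.856 over the alternatives).

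As with Ezh2, the summed markers of every listed cell type except sensory neurons were highest in iKO 1 among the iKO libraries. Endothelial markers, for example, summed to 235.7 CPM in iKO 1 and at most 109.3 CPM in the other iKO libraries. Of the cycling cell markers all 10 passed the filter, 0 were called and the median log2 fold change was -0.42. That median was -0.80 for erythroid and -0.54 for lymphocyte markers, and -0.12 to 0.25 in the other lists. Cycling cell markers summed to 35.5 to 75.9 CPM in controls, 83.7 CPM in iKO 1 and 28.9 to 36.2 CPM in the other iKO libraries. The part of any of these cell types in the Ezh2 values was not tested. Eed had 14.4 ± 1.42 CPM and 14.5 ± 1.18 CPM, and Suz12 had 59.7 ± 2.99 CPM and 56.3 ± 3.89 CPM. Per kilobase the 4 PRC2 genes summed to 33.2 ± 0.866 CPM per kb in controls and 32.3 ± 1.24 CPM per kb in iKO libraries. Ezh1 exceeded Ezh2 per kilobase by a ratio of 15.6 ± 1.72 in controls and 19.3 ± 4.06 in iKO libraries, where it ran from 12.2 to 22.9.

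Levels per kilobase spread the members over more than 2 orders of magnitude in control ganglia. Hdac2 had the highest, 27.1 ± 2.04 CPM per kb, then Mphosph8 with 24.7 ± 2.22, Cbx5 with 18.0 ± 0.817, Ezh1 with 16.3 ± 0.303 and Trim28 with 15.1 ± 0.876. Hdac2 and Mphosph8 lie about 1 SD apart. The order depends on the exon length used: with the longest annotated transcript in place of all exons, 3 of the 4 highest stayed among the 4 highest and Trim28 took the place of Cbx5. The highest PRDM members were Prdm4, with 10.3 ± 0.557 CPM per kb, and Prdm2, with 9.84 ± 0.649, which lie within 1 SD of each other. Prdm8 had 2.15 ± 0.249 CPM per kb, below Prdm12 in control and in iKO libraries. Prdm1, at 0.146 ± 0.0419 CPM per kb, was the lowest of the 35.

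**Figure D3:**
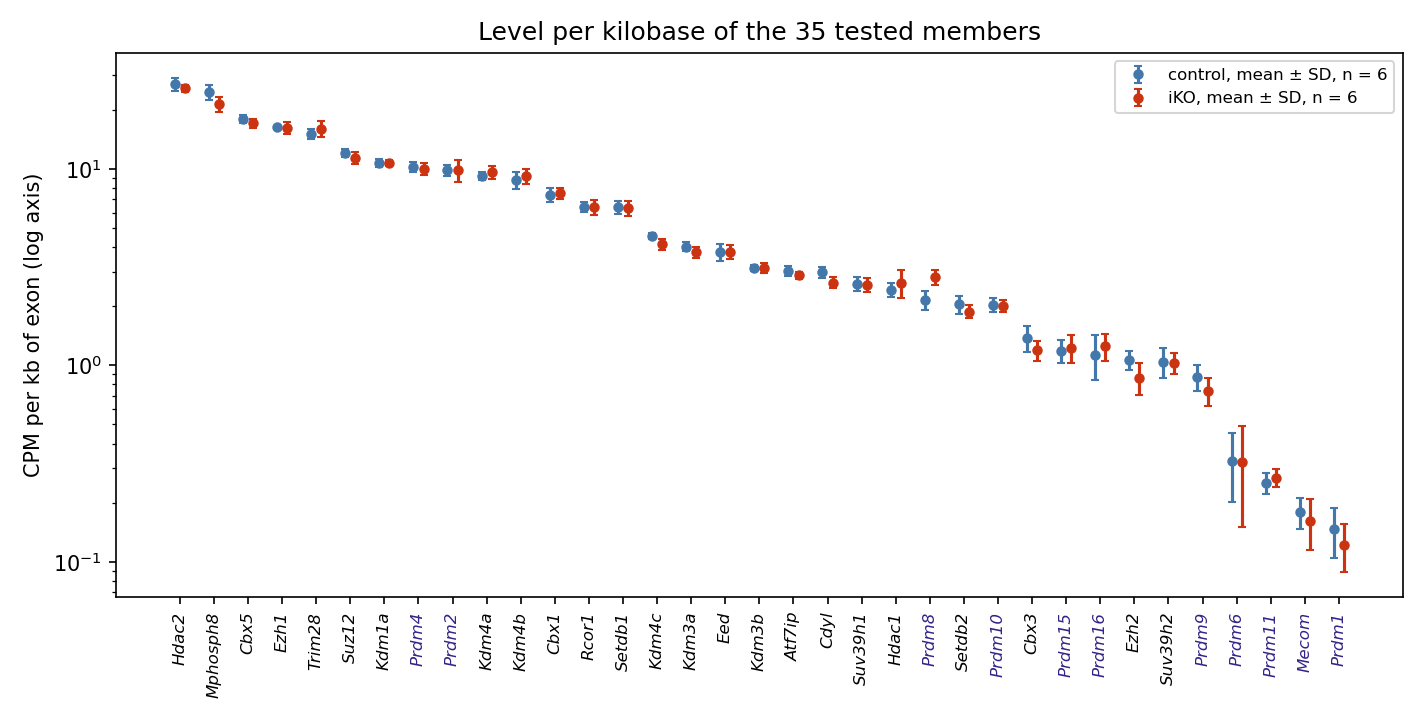
Level per kilobase of exon (CPM per kb, log axis) of the 35 tested members, from highest to lowest in controls, as mean ± SD of 6 libraries a group; PRDM genes are named in blue. Control and iKO means lie close together from Hdac2 at 27.1 CPM per kb down to Prdm1 at 0.146.

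Without library iKO 1 edgeR's quasi-likelihood test called 1 member, Prdm8 (log2 fold change 0.39, adjusted p = 0.0453), and 2.21% of all genes. At an unadjusted p under 0.05, Prdm8 alone was higher (8.3% of all genes were) and the same 4 members, Mphosph8, Cdyl, Kdm4c and Ezh2, were lower (7.91% of all genes were). iKO 1 was the highest or the lowest iKO library for 19 of the 35 members (54.3%), and for 64.5% of all genes.

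The controls differ in agent and genotype, so iKO libraries were also set against each kind in a fit of all 12 libraries with 3 groups. The 2 comparisons share the iKO libraries. Against the 4 tamoxifen controls, edgeR's quasi-likelihood test called 0 of 35 members (1.35% of all genes) and found 5 at an unadjusted p under 0.05, namely Cbx3, Hdac2, Kdm4c, Mphosph8 and Prdm8 (14.3%, against 17% of all genes). DESeq2 called Prdm8 and Mphosph8 (5.71%, against 3.58% of all genes). Against the 2 corn-oil controls, edgeR and DESeq2 each called 0 members (edgeR called 0.146% of all genes), and Ezh2 and Prdm8 had an unadjusted edgeR p under 0.05 (5.71%, against 5.3%).

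Levels in each kind of control follow for Mphosph8, Hdac2 and Ezh2. At an unadjusted edgeR p under 0.05, 11.4% of members differed between the kinds, near the 11.6% of all genes. For Mphosph8 the 4 tamoxifen controls had 91.0 ± 8.43 CPM and the 2 corn-oil controls 86.9 and 79.8 CPM, which overlap. Its log2 fold change was -0.25 against the tamoxifen controls (edgeR adjusted p = 0.063) and -0.03 against the corn-oil controls. Without iKO 1 the edgeR adjusted p against the tamoxifen controls was 0.0221. That fit called 2 members, Mphosph8 and Prdm8 (5.71%), and 8.87% of all genes. The same test called Mphosph8 alone among the members when control 4 was left out (2.86%, against 1.85% of all genes) and when iKO 4 was left out (2.86%, against 2.84%). Hdac2 had 126.8 ± 4.13 CPM in tamoxifen controls and 112.0 and 108.7 CPM in the corn-oil controls, which lie below all 4, and 5 of the 6 iKO libraries lay above both corn-oil controls. Ezh2 ran the other way, with 6.66 ± 0.531 CPM in tamoxifen controls and 8.20 and 7.64 CPM in corn-oil controls.

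The difference between the kinds of control was tested directly, as a comparison added after these values were seen. Corn-oil against tamoxifen controls, edgeR called 0 members and 0% of all genes; DESeq2 called 0 members. At an unadjusted p under 0.05 edgeR found 4 members, Hdac2, Kdm4b, Mphosph8 and Suv39h2 (11.4%, against 11.6% of all genes). The log2 difference, corn oil minus tamoxifen, was -0.23 ± 0.07 for Hdac2 (SE; edgeR adjusted p = 0.393) and -0.22 ± 0.09 for Mphosph8 (edgeR adjusted p = 0.395). Agent, genotype and, since both corn-oil controls were male and numbered last, any difference in handling cannot be told apart here.

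**Figure D4:**
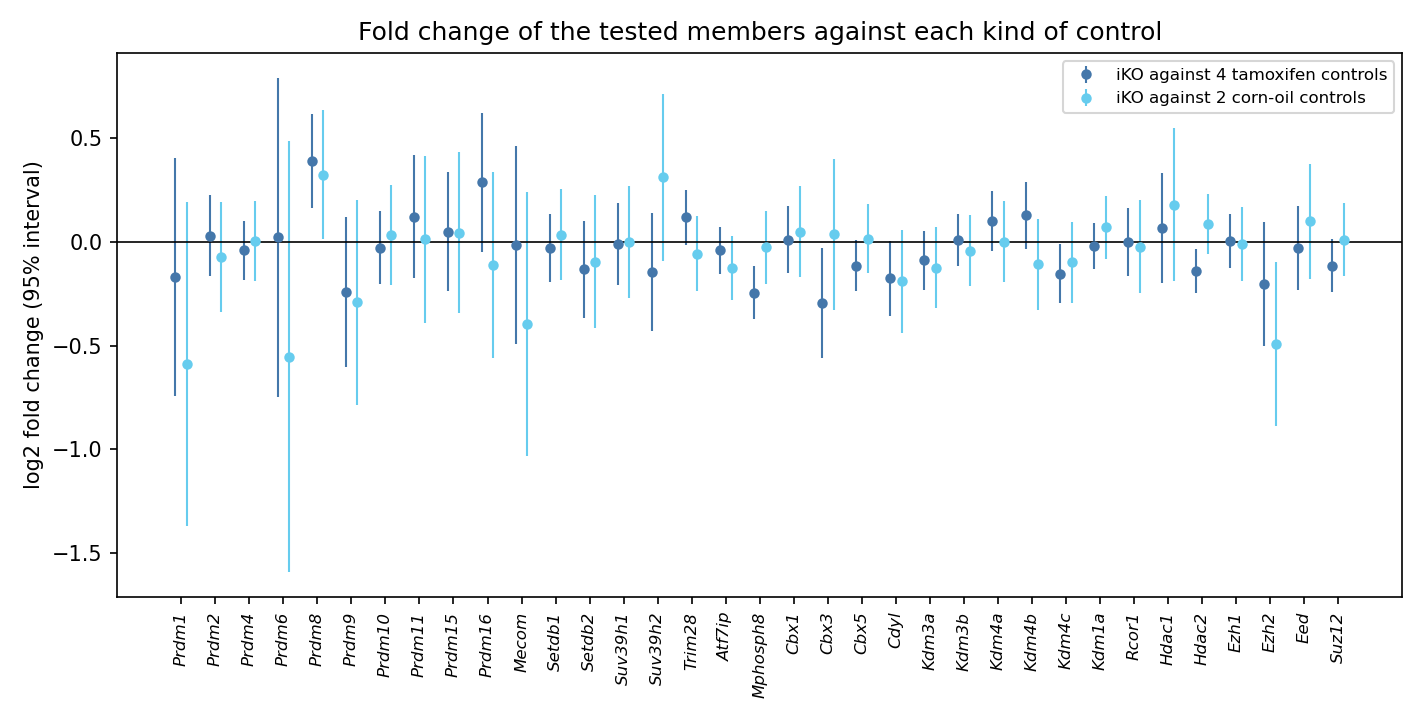
Log2 fold change of the 35 tested members, iKO over the 4 tamoxifen controls (dark) and over the 2 corn-oil controls (light), with 95% intervals of edgeR's 3-group fit. Prdm8 lies above 0 in both (0.39 and 0.32), the interval of Mphosph8 lies below 0 in the first and spans 0 in the second (estimates -0.25 and -0.03), and the intervals against 2 controls are wider.

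Sex was a term in the fit, and 0 members differed between the sexes by edgeR's quasi-likelihood test (0.0549% of all genes did); DESeq2 called 0 as well, and 0 members had an unadjusted edgeR p under 0.05 (4.11% of all genes). Suv39h1, which lies on the X chromosome, differed by 0.06 on the log2 scale, male minus female. Among the wider lists the X-linked H3K27 demethylase Kdm6a, known to escape X inactivation, was called, with 51.4 CPM in females and 34.9 CPM in males and a log2 difference of -0.57 ± 0.06 (SE; edgeR adjusted p = 0.000186). Whether the iKO difference was unlike in males and females was tested by an interaction: edgeR and DESeq2 each called 0 members (edgeR called 0% of all genes). Setdb1 alone had an unadjusted edgeR p under 0.05 (2.86%, against 3.59%), with an adjusted p of 0.945.

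The remaining repressive machinery was read from 5 wider lists of 79 genes, of which 75 passed the filter. 1 of the 75 was called, Cbx6, and 0 were called lower (0.946% of all genes were called in either direction). Cbx6, a chromobox subunit of Polycomb repressive complex 1 (PRC1), the complex that reads H3K27 methylation, had 165.7, 171.0 and 196.2 CPM (lowest, median and highest) in controls and 210.3, 233.4 and 254.5 CPM in the iKO group. All iKO libraries were above all controls, and groups did not overlap for 1.54% of all genes. Cbx6 rose by 0.40 ± 0.07 on the log2 scale (SE; adjusted p = 0.00672, edgeR's quasi-likelihood test). The adjusted p ran from 2.85e-07 to 0.0858 over the 24 alternatives, and the call was lost only when replicates 1 to 4 were fitted alone (0.0858). Against the tamoxifen controls the edgeR adjusted p was 0.00383 with a log2 fold change of 0.45, and against the corn-oil controls 0.582 with 0.29. Cbx6 shares 5.31% of its exon bases with Npcd on the same strand, which had 0 counts.

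Cbx6 was the only PRC1 gene called among 19. Pcgf3, another PRC1 subunit, also had groups that did not overlap, at 68.2 to 73.4 CPM in controls and 57.2 to 67.8 CPM in the iKO group. It was not called (log2 fold change -0.12, edgeR adjusted p = 0.447). Of the 75 tested genes of the wider lists, these 2 alone had groups apart (2.67%, against 1.54% of all genes). The PRC1 chromobox genes Cbx2, Cbx7 and Cbx8 were not called. Among 23 tested corepressors of CoREST, NuRD and related complexes the smallest p belonged to Ctbp2, with 9.42 ± 0.849 CPM in controls and 11.7 ± 1.67 CPM in the iKO group (edgeR adjusted p = 0.252), and Hmg20b, a CoREST subunit, with 21.1 ± 1.56 and 24.6 ± 3.05 CPM (edgeR adjusted p = 0.433). This list had a median log2 fold change of 0.07, with 16 genes above 0 and 7 below, against a median of about 0 over all genes.

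Other H3K9 enzymes and cofactors gave 0 calls among 16 tested. The smallest p there belonged to Jmjd1c, a relative of Kdm3a, with 84.0 ± 5.36 CPM in controls and 77.0 ± 3.86 CPM in the iKO group (edgeR adjusted p = 0.522), and to Ehmt2. PRC2 accessory subunits and H3K27 demethylases gave 0 calls among 9 tested for iKO against control. Aebp2 (edgeR adjusted p = 0.542) and Phf1 (0.681) came first. Phf1 shares 39.3% of its exon bases with Cuta on the opposite strand, and reads there cannot be told apart. Cuta had 7829 counts over all libraries against 6622 for Phf1. DNA methylation genes gave 0 calls among 8, with Tet2 (edgeR adjusted p = 0.733) first. At an unadjusted p under 0.05 edgeR found 6 of the 75 genes higher, namely Cbx6, Ctbp1, Ctbp2, Hmg20b, Mbd3 and Phc2 (8.0%, against 5.33% of all genes), and 2 lower, Jmjd1c and Pcgf3 (2.67%, against 4.19%). DESeq2 called Cbx6 alone for iKO against control. Against the tamoxifen controls it called Cbx6, Ctbp1, Ehmt2 and Mbd3 (5.33%, against 3.58% of all genes).

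**Figure D5:**
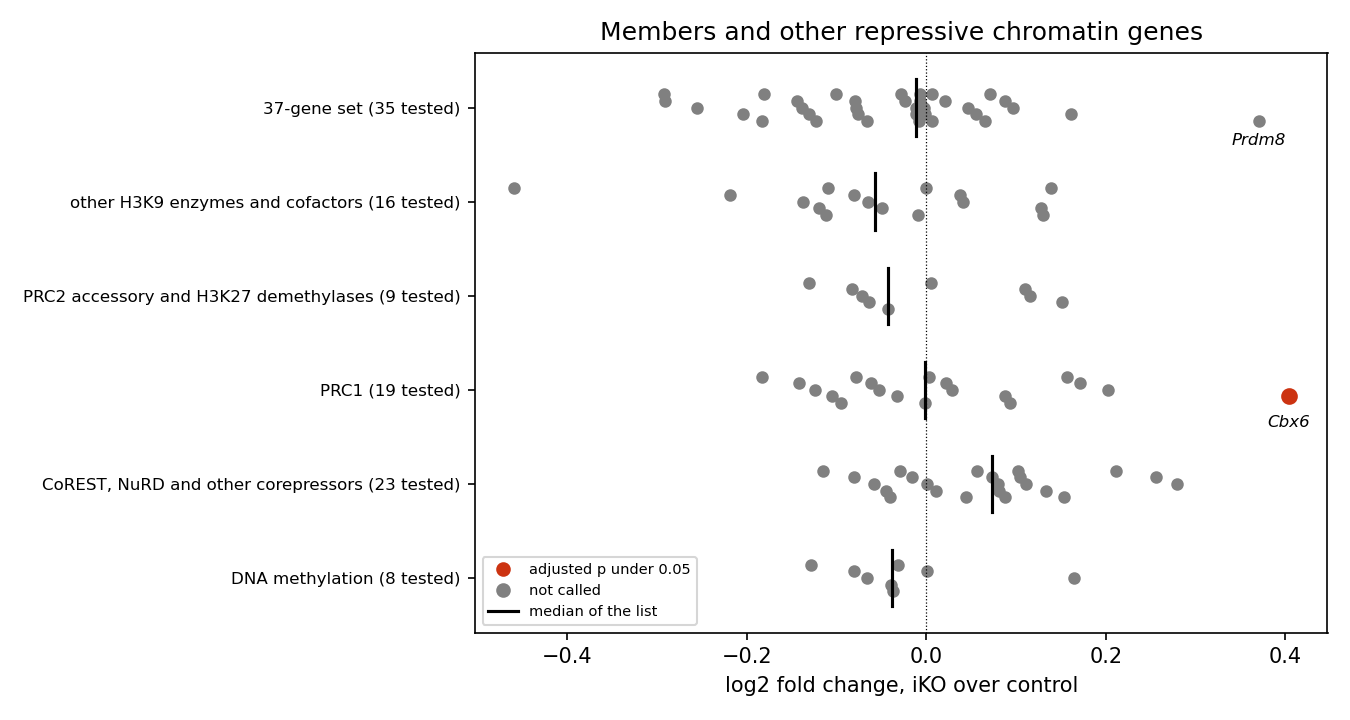
Log2 fold change, iKO over control, of the 35 tested members (top row) and of the tested genes of 5 wider lists, with a bar at each list's median. Cbx6 (0.40) is the one gene with an adjusted p under 0.05, and Prdm8 (0.37) is the highest member.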

How the data were processed

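The authors deposited raw counts per gene, 1 table a library, with no normalization, from non-stranded poly(A) libraries per the labels' protocols. The submitters' processing notes name STAR 2.7.8a, featureCounts 2.0.1, bcl2fastq 2.20.0.422 and the GRCm39 build. For the annotation release and counting options, details were not given in the sources used here. Gene names were taken from a GRCm38 annotation (94.0% of identifiers named), used only for names, exon lengths and overlaps.

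Counts were scaled by TMM, filtered with filterByExpr and tested with edgeR 4.0.16 in R 4.3.3 (quasi-likelihood, robust, sex as a term, 9 residual degrees of freedom, biological coefficient of variation 12.8%), with Benjamini-Hochberg adjustment over 16384 genes and a threshold of 0.05. Alternatives used DESeq2 1.42.0, limma 3.58.1, other scalings, filters, covariates and samples. Procedures were tested on simulated data. The members and lists were chosen with earlier results of these data known. Described in full were members called in any comparison, with unadjusted p under 0.05, with groups that do not overlap, or among the 4 highest per kilobase, and from each wider list genes called and the 2 with the smallest p. Some genes of the wider lists are not reported here. Exact permutation tests are 2-sided, with no adjustment and no sex term. They are given for members picked on these same counts, so they are not separate evidence. Intervals and limits for counts of 0 cover the spread modelled or counting error only.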

Additional observations from a re-analysis of the deposited data

Results flagged for a closer look

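For each tested member, the 6 values of a group were examined for a single library far from the other 5, which made 70 groups of 6, and 5 such values were found. Chance gives about 1 in 20 groups, and values of 1 library are not independent across genes. Prdm15 had 18.59 CPM in iKO 5, where the next highest iKO library had 13.53 CPM. Prdm16 had 16.03 CPM in control 5, where the next highest control had 10.11 CPM. Cbx1 had 36.47 CPM in control 3, next to 32.21 CPM, and 36.34 CPM in iKO 1, next to 32.38 CPM. Kdm4a had 47.51 CPM in iKO 4, where the next lowest iKO library had 56.08 CPM. None of these genes was called in a comparison.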

How the results depend on the processing

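For iKO against control, 0 members were called in 21 of 24 alternatives. DESeq2's Wald test called 1, and leaving out each library in turn gave 0 to 1 (Prdm8, without control 5 or iKO 1). Against the tamoxifen controls DESeq2 called 2 members and 587 of all genes, where edgeR called 0 and 222, and leaving out each library gave 0 to 2 members and 98 to 1459 genes. Between the sexes and for the interaction, all 14 alternatives of each called 0 members. Against corn-oil controls and between kinds of control, the alternatives that kept the 2 corn-oil controls also called 0. Few of all genes were called there either. The most were 160 against corn-oil controls, 44 between kinds of control, 15 between the sexes and 2 for the interaction. The signs of Prdm8, Mphosph8, Cdyl, Kdm4c, Ezh2, Cbx6 and Prdm12 held in all 24. The number of all genes called for iKO against control, 155, moved to 294 with DESeq2, 253 with no filter, 235 without the corn-oil controls, 341 without both iKO 1 and control 6 (chosen after seeing the data), 35 with replicates 1 to 4 alone, and 92 to 364 with 1 library left out, the highest without iKO 1. With the replicate block 0 members and 79 genes were called. Deviations of libraries sharing a number correlated with r from -0.15 to 0.22, and 3 of 6 matched their own number best. These values do not settle whether the numbers pair samples. Control 3 was male and iKO 3 female, and the numbers were not taken to pair samples. Depth limits Prdm1, Prdm6 and Mecom, at 7 to 58 counts in a library.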
